A study of Mus musculus with 2 samples.

Results

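The beta subunits and FXYD regulators of the sodium pump were examined in heart RNA of young mice. The genes were listed by symbol and comprised 3 beta subunit genes (Atp1b1, Atp1b2 and Atp1b3) and 3 FXYD genes (Fxyd1, Fxyd5 and Fxyd6). All 6 were found, each under 1 gene identifier, among 55536 annotated genes. The rule that lists them uses no measured value, but the 6 genes were chosen with earlier results of these data known. The sodium pump moves sodium out of the cell and potassium in at the cost of ATP. Its alpha subunit carries the catalytic sites, its beta subunit is a glycoprotein needed to fold the pump and bring it to the cell surface, and a small single-span FXYD protein can join the complex and tune its affinity for sodium. In heart muscle the pump sets the sodium gradient that drives the sodium-calcium exchanger, and phospholemman, the product of Fxyd1, restrains the pump until it is phosphorylated.

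Heart tissue came from male B6CASTF1/J mice, the hybrid of C57BL/6J and CAST/EiJ, at 14 days of age. There were 2 libraries, labelled as biological replicates 1 and 2, and both belonged to the same group, so no treatment, genotype or age could be compared. The labels mention 3 males and give both libraries 1 donor label, and whether animals were pooled is not stated, so the spread between libraries may be partly technical. Each library was made from 300 ng of total RNA with spike-in RNAs, and the spike-in label names a stranded preparation with ribosomal RNA reduced.

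The gene tables summed to 39334380 expected counts in replicate 1 and 46391250 in replicate 2, and 12487 genes reached 1 TPM, an abundance scaled for transcript length and library size, in both. The heart label was borne out by its markers: all 6 cardiomyocyte markers were above 1 TPM in both libraries, with a summed level of 23730 TPM in replicate 1 and 22082.5 TPM in replicate 2. The libraries differed in what else they held. The 7 atrial markers summed to 1652 TPM in replicate 1 and 516 TPM in replicate 2. None of the 8 T cell and thymus markers reached 1 TPM in both libraries, and together they stood at 1.33 TPM in replicate 1, where Ptcra had 0 counts, and at 52.1 TPM in replicate 2. In replicates 1 and 2 the endothelial markers summed to 364 and 345 TPM, the fibroblast markers to 648 and 555 TPM and the macrophage markers to 53.4 and 63.3 TPM. In replicates 1 and 2 the smooth muscle and pericyte markers summed to 388 and 404 TPM, the epicardial and mesothelial to 34.6 and 39.1, the Schwann cell and neuron to 5.52 and 4.99, the epithelial to 2.30 and 7.80, the adipocyte to 27.9 and 10.7, and the erythroid to 9346 and 9153 TPM. Fewer cells of a type and less RNA per cell cannot be told apart in whole tissue.

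The 3 FXYD genes share the signature from which the family takes its name, and its codons are shown for that reason. What else their coding sequences share was not compared. The letters are 45 coding bases of each gene from the GENCODE M21 transcripts (GRCm38), and the capitals mark the 15 bases of the signature codons.
Fxyd1: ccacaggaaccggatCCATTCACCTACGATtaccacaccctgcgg
Fxyd5: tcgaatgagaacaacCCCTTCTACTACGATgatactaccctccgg
Fxyd6: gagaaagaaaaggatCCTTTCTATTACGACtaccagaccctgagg
In all 3 genes the signature was split by an intron after base 13 of the 15, inside its last codon. The intron had 418 bases in Fxyd1 (chr7:31053473-31053905 from the first to the last signature base, minus strand), 102 bases in Fxyd5 (chr7:31035282-31035398, minus strand) and 104 bases in Fxyd6 (chr9:45390660-45390778, plus strand). The signature began at coding base 82 of Fxyd1-203 but at coding base 400 of Fxyd5-203, which encodes a much longer extracellular part. Within a gene every annotated coding transcript that held the signature used the same genomic bases, so its sequence was the same by construction. These were 10 of 12 for Fxyd1, 8 of 11 for Fxyd5 and 2 of 2 for Fxyd6. Among those without it, the annotated coding sequence of Fxyd1-211 does not start with ATG.

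The second sequence difference concerns Fxyd6, whose coding transcripts Fxyd6-201 and Fxyd6-203 each have 8 exons and start at the same base. They use acceptor sites 3 bases apart for exon 3 (45390634 in Fxyd6-201 and 45390637 in Fxyd6-203, chromosome 9, GRCm38), which lies in the coding sequence. The sequences run from 10 bases before to 10 bases after the exon junction, and the capitals mark the 3 bases found in Fxyd6-201 alone.
Fxyd6-201: ctggcgagtgCAGctgagaagga
Fxyd6-203: ctggcgagtgctgagaagga
The coding sequences therefore have 282 and 279 bases, and outside this site the annotated transcripts differ only by 4 bases at their 3′ ends. As a share of its gene, Fxyd6-201 differed more between the libraries than any other transcript of the 6 genes in each table, as given below.

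The members spanned a wide range of levels, and 1 gene led each family. Levels are from the authors' gene tables, called RSEM-style after their column names, unless the authors' second estimate of the same libraries, called kallisto-style, is named; a pair of values without further label is replicate 1 and replicate 2. Fxyd1 (phospholemman; chr7:31051678-31057199, minus strand) had 316 TPM in replicate 1 and 292 TPM in replicate 2, a mean of 304 ± 17.1 TPM (SD, n = 2), or 720 TPM when TPM was rescaled over nuclear protein-coding genes alone. It ranked 226 of the 12487 genes that reached 1 TPM in both libraries. Atp1b1 (chr1:164437109-164458355, minus strand), the beta subunit common to most tissues, followed at 206 and 191 TPM, a mean of 199 ± 10.4 TPM and rank 371. The ranges of the pair did not overlap, and Fxyd1 stood 1.54 and 1.53 times above Atp1b1 within the libraries. This order holds for TPM only. In counts not divided by length Atp1b1 was higher, with 14271 and 16150 against 4067 and 4449 for Fxyd1. The deposited mean lengths were 2363 and 2403 bases for Atp1b1 and 519 and 515 bases for Fxyd1.

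The remaining 4 genes lay about an order of magnitude lower. Atp1b3 (chr9:96332655-96364442, minus strand), a beta subunit found in many tissues, had 26.0 TPM in replicate 1 and 29.0 TPM in replicate 2, with rank 2529. Atp1b2 (chr11:69599736-69605942, minus strand), known in brain as the adhesion molecule on glia, had 12.6 and 13.0 TPM and rank 5019. The beta subunits kept the same order in both libraries with no overlap between them.

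Fxyd5 (dysadherin, a regulator with a long extracellular part that is known to weaken cell adhesion; chr7:31032722-31042481, minus strand) had 10.5 TPM in replicate 1 and 11.99 TPM in replicate 2. Fxyd6 (phosphohippolin, best known from brain; chr9:45370185-45396159, plus strand) was lowest at 8.50 and 7.45 TPM, with rank 6893, so 55.2% of detected genes were higher. All 6 genes were thus detected. Atp1b2 and Fxyd5 did not overlap, but the gap between them was 0.580 TPM, smaller than the 1.45 TPM between the libraries for Fxyd5 itself, so their order is not separated from the spread.

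**Figure D1:**
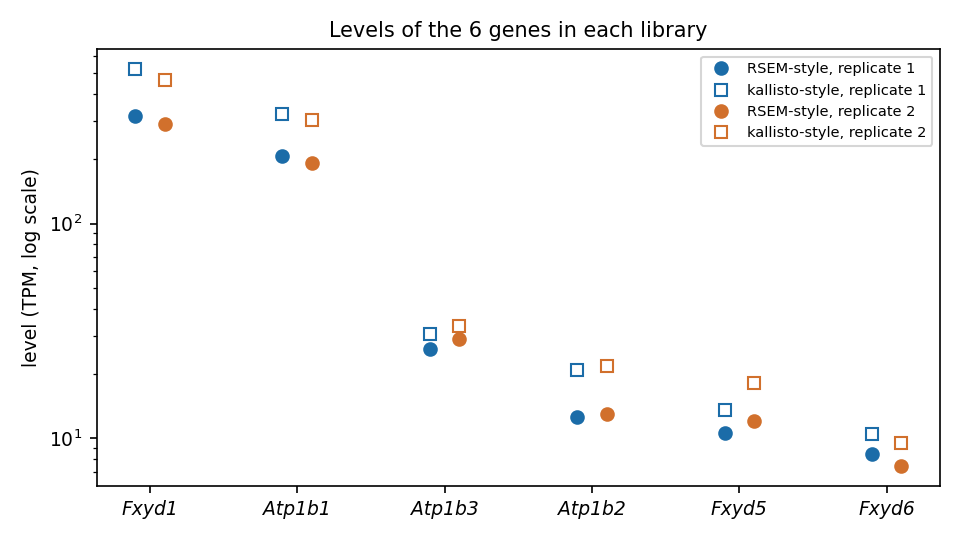
Levels of the 6 genes on a logarithmic TPM axis, with replicate 1 left of replicate 2 for each gene, filled circles for the RSEM-style gene table and open squares for the kallisto-style table. Fxyd1 and Atp1b1 stand far above the other 4 genes in both libraries and both tables, and the order of the genes is the same in both tables.

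Within the beta family, Atp1b1 supplied 84.2% of the summed TPM in replicate 1 and 82.0% in replicate 2, Atp1b3 10.6% and 12.4%, and Atp1b2 5.14% and 5.59%. The log2 ratio of Atp1b1 over Atp1b2 was 4.02 in replicate 1 and 3.86 in replicate 2 (3.94 ± 0.11, SD, n = 2, a 15.4-fold difference). That of Atp1b1 over Atp1b3 was 2.98 and 2.72 (2.85 ± 0.19), and that of Atp1b3 over Atp1b2 was 1.04 and 1.15 (1.10 ± 0.07). The last depended on the table, since the kallisto-style TPM gave 0.58 ± 0.05. The SDs cover the spread between these 2 libraries and not the choice of table, and no test was run on the ratios.

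Among the FXYD members, Fxyd1 supplied 94.3% of the summed TPM in replicate 1 and 93.8% in replicate 2. The log2 ratio of Fxyd1 over Fxyd5 was 4.89 and 4.59 (4.74 ± 0.21, SD, n = 2, 26.8-fold), and that of Fxyd1 over Fxyd6 was 5.20 and 5.27 (5.24 ± 0.05, 37.7-fold). Fxyd1 over Fxyd5 became 5.97 with protein-coding transcripts only and 4.13 with counts not divided by length, and Fxyd1 over Fxyd6 became 3.23 with such counts. Phospholemman mRNA led the FXYD members in each library under each of these settings. Fxyd5 over Fxyd6 was small at 0.31 and 0.68 (0.49 ± 0.26). Its sign turned to -0.75 when only protein-coding transcripts were summed and to -0.90 when counts were not divided by length, so no order of Fxyd5 and Fxyd6 was fixed by these data.

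The other members of the families were near the floor. Of 5 further beta and FXYD paralogs, 1 reached 1 TPM in both libraries: Fxyd3, known from epithelia, at 1.58 TPM in replicate 1 and 1.12 TPM in replicate 2, from 16 and 14 counts. Fxyd2, the gamma subunit known from kidney, had 9 and 21 counts, and Fxyd7, known from brain, had 9 and 10 counts. By the kallisto-style table Fxyd3 had 1.72 and 0.75 TPM and Fxyd2 had 0.95 and 2.28 TPM, so neither reached 1 TPM in both libraries there. Atp1b4, a muscle paralog that in mammals is reported outside the pump, had 1 and 2 counts, and Fxyd4 had 0 counts in both libraries. The gastric and nongastric proton pump genes Atp4a, Atp4b and Atp12a had at most 6 counts in a library.

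**Figure D2:**
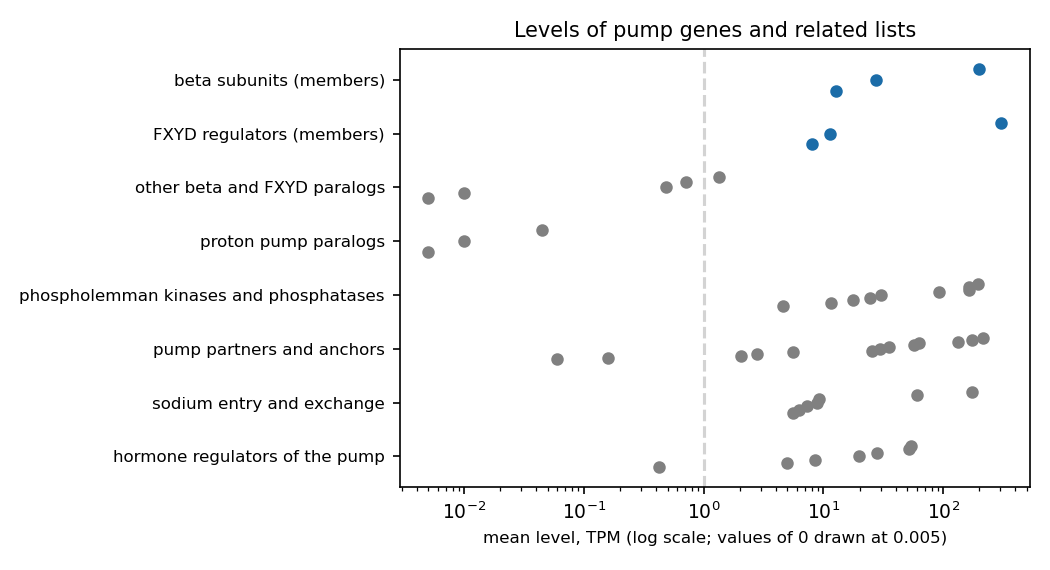
Mean level over both libraries, on a logarithmic TPM axis, of the members (blue) and of 6 related gene lists (grey), 1 point per gene, with a dashed line at 1 TPM. By the RSEM-style table the 6 members lie between 7.98 and 304 TPM, while 4 of the 5 other beta and FXYD paralogs and all 3 proton pump paralogs lie below 1 TPM. The 6 were chosen with earlier results known, so this contrast is no test of them.

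The members' levels were carried by few transcripts in some genes and divided among many in others. Atp1b3 was simplest: its single coding transcript Atp1b3-201 took 98.1% of the gene's TPM in replicate 1 and 96.7% in replicate 2, and all of it by the kallisto-style table. For Atp1b1, coding transcripts took 99.6% and 98.7%. The full-length Atp1b1-201 took 88.9% and 91.0% of the gene, but 62.1% and 64.3% by the kallisto-style table. That table gave the short coding transcript Atp1b1-203, of 628 bases, 121 and 105 TPM, against 22.0 and 14.7 TPM in the RSEM-style table. The gene total of Atp1b1 was thus divided differently by the tables, while its first place among beta genes was the same.

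Atp1b2 changed more between the libraries. Its full-length transcript Atp1b2-201 took 84.4% in replicate 1 and 68.8% in replicate 2, while the noncoding Atp1b2-204, of 711 bases, took 7.95% and 23.9%. In TPM, Atp1b2-201 stood at 10.6 and 8.97 and Atp1b2-204 at 1.00 and 3.12. The authors' interval of Atp1b2-204 ran from 0.115 to 2.38 TPM in replicate 1 and from 1.80 to 4.59 TPM in replicate 2, so the intervals overlapped. The kallisto-style table gave Atp1b2-204 6.57 and 8.27 TPM, which was 31.5% and 38.0% of the gene, and gave Atp1b2-201 49.99% and 38.4%, so the pair was about level in replicate 2 there. The deposited mean length of the gene was 2742 bases in replicate 1 and 2358 bases in replicate 2, and the gene's TPM was lower in replicate 1 although its scaled count, given below, was higher there.

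Fxyd5 was the one member for which coding transcripts did not prevail in both libraries. They took 57.2% of its TPM in replicate 1 and 29.6% in replicate 2, or 60.1% and 47.8% by the kallisto-style table. The rest lay mostly in the retained-intron transcript Fxyd5-214, at 3.99 TPM in replicate 1 and 7.89 TPM in replicate 2 by the RSEM-style table and at 5.43 and 9.46 TPM by the kallisto-style table. Both tables therefore placed Fxyd5-214 lower in replicate 1, although its authors' intervals, 1.58 to 6.07 TPM in replicate 1 and 5.24 to 9.09 TPM in replicate 2, overlapped. The coding Fxyd5-203 had 37.5% and 0.01% of the gene in the RSEM-style table, yet 2.53 and 2.39 TPM in the kallisto-style table, and its authors' interval reached up to 3.77 TPM in replicate 1 and 1.68 TPM in replicate 2 from lower bounds near 0. Its estimate of 3.95 TPM in replicate 1 lay above that upper bound. With 214 and 274 counts spread over 14 annotated transcripts, the division of Fxyd5 was weakly determined.

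Fxyd6 showed the largest change in a transcript's share of its gene among the 6 genes, in both tables. The transcript with the 3 extra bases, Fxyd6-201, had 5.95 TPM in replicate 1 and 1.84 TPM in replicate 2, and Fxyd6-203, which lacks them, had 2.46 and 5.44 TPM. As shares of the gene, Fxyd6-201 took 70.1% in replicate 1 and 24.7% in replicate 2, and Fxyd6-203 took 28.9% and 73.0%. The kallisto-style table gave the same exchange, with 7.36 and 2.23 TPM for Fxyd6-201 and 3.01 and 7.12 TPM for Fxyd6-203. The leading transcript of Fxyd6 thus differed between the libraries in both tables, while the pair summed to 8.41 TPM in replicate 1 and 7.28 TPM in replicate 2.

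The size of that exchange was set beside all genes. The share of Fxyd6-201 was 45.3 percentage points higher in replicate 1 by the RSEM-style table and 47.1 points higher by the kallisto-style table. Over 8828 genes that had 2 or more annotated transcripts and no fewer than 200 counts in either library, the median of the largest change in any transcript's share was 5.85 points by the RSEM-style table and 6.60 points by the kallisto-style table. A change as large as that of Fxyd6 was found in 0.385% of these genes by the RSEM-style table, in 0.487% by the kallisto-style table and in 0.0453% by both. Fxyd6 was picked here as the largest change of the 6 genes, so these percentages are no test of it. The genes were not matched to Fxyd6 for counts or for how alike their transcripts are, and both tables estimate the same libraries. The authors' intervals were wide, from 3.71 to 7.46 TPM in replicate 1 and from 0.745 to 3.65 TPM in replicate 2 for Fxyd6-201, which did not overlap, and from 0.891 to 4.43 and from 3.51 to 6.55 TPM for Fxyd6-203, which did. The number of reads that cover the 3-base difference is not given by these tables, and no test was run on the shares.

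**Figure D3:**
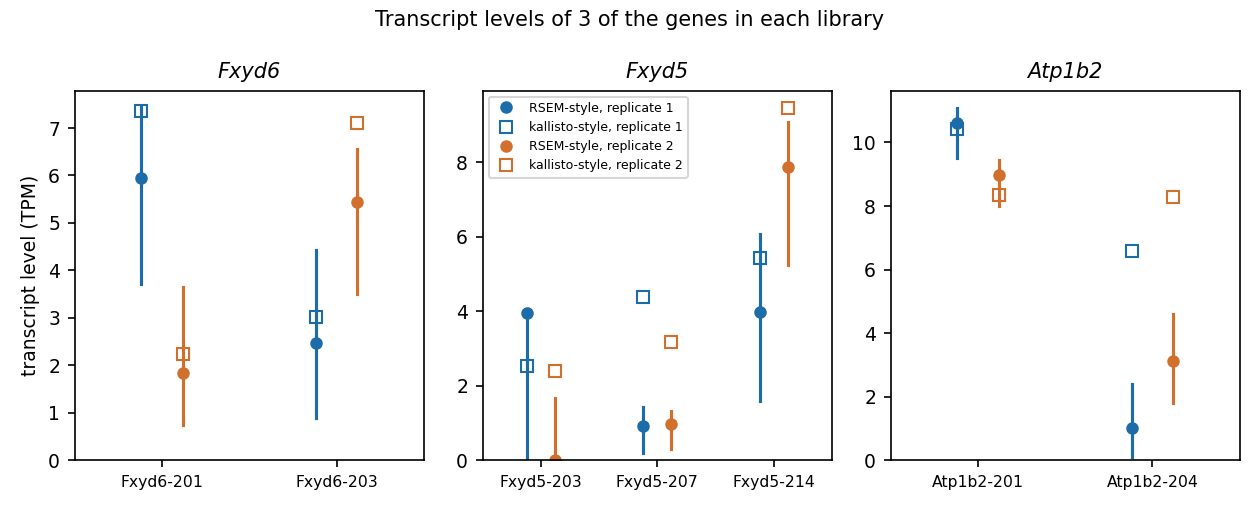
Transcript levels of Fxyd6, Fxyd5 and Atp1b2 in TPM, with replicate 1 (blue) left of replicate 2 (orange); filled circles are RSEM-style values, vertical lines the authors' intervals, which leave out the value of Fxyd5-203 in replicate 1, and open squares kallisto-style values. Fxyd6-201 leads in replicate 1 and Fxyd6-203 in replicate 2 in both tables, and Fxyd5-214 is lower in replicate 1 in both.

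Fxyd1 had the most annotated transcripts, 17, of which 12 code for protein. Coding transcripts took 97.1% of its TPM in replicate 1 and 97.2% in replicate 2, so its coding level was stable at 307 and 284 TPM. The tables disagreed on which transcript led. The RSEM-style table placed 162 and 155 TPM in Fxyd1-203 and 0 and 15.03 TPM in Fxyd1-205, and placed 14.8 and 0.04 TPM in Fxyd1-201, whereas the kallisto-style table placed 27.8 and 0 TPM in Fxyd1-203 and 263 and 230 TPM in Fxyd1-205, with 0 in Fxyd1-201. Fxyd1-203 starts near the RefSeq start, and Fxyd1-201 and Fxyd1-205 start further upstream.

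The promoter windows of the leading gene of each family are shown because they hold the annotated start of Fxyd1-203 and of Atp1b1-201. Sequences are from RefSeq (GRCm38.p6), 300 bases each, 250 before and 50 from the start, on the minus strand; capitals mark matches on either strand to the core of the TATA box, which is TATAAA, to the core of the CCAAT box, and to the core of the GC box, which is GGGCGG. No matches overlap.
Fxyd1 promoter (chr7:31054804-31055103): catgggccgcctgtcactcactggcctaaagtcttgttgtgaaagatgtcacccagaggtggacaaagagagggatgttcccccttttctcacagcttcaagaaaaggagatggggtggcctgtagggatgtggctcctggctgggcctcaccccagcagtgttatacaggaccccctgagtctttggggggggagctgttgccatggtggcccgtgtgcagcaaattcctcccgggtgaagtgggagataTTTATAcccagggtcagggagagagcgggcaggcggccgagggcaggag
Atp1b1 promoter (chr1:164458306-164458605): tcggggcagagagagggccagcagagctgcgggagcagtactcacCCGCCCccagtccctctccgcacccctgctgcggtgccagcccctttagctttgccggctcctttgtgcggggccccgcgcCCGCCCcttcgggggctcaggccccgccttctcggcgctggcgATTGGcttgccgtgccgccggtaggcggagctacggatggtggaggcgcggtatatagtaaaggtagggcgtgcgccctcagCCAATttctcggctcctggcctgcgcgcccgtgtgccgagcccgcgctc
The Fxyd1 window held 1 TATAAA match and none of the other motifs, with 58.7% G and C. That match reads TATAAA on the opposite strand. It lies within the 50 bases from the RefSeq start, before the annotated start of Fxyd1-203. The Atp1b1 window held 2 CCAAT and 2 GGGCGG matches and 71.0% G and C. Its CCAAT match on the printed strand lies within the 50 bases from the start, and the other CCAAT match lies before the start. Of 32851 RefSeq windows of the same length, 13.6% held TATAAA, 37.4% CCAAT and 35.7% GGGCGG on either strand. Matches to each motif are thus found in many other windows. The median share of G and C over these windows was 52.7%. RefSeq windows were listed for 5 of the 6 genes. Fxyd5 had no match to the 3 motifs, but its window held the start of Fxyd5-207 alone. That transcript took 8.84% and 8.0% of the gene's TPM, or 32.2% and 17.5% by the kallisto-style table. Fxyd6 had 1 CCAAT match, and of the 2 windows of Atp1b3 the one with the start of Atp1b3-201 had 6 GGGCGG matches.

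Use of the Fxyd1 start differed more by table than by library. Transcripts that start within 100 bases of the RefSeq start, 5 of the 17, took 69.3% of Fxyd1 TPM in replicate 1 and 72.6% in replicate 2 by the RSEM-style table, and 42.4% and 42.8% by the kallisto-style table. The 8 transcripts with starts further upstream (chr7:31055409-31057199) took 29.4% and 26.3% by the RSEM-style table and 56.7% and 56.2% by the kallisto-style table. The division of Fxyd1 between its starts therefore rests on the estimator, although each table repeated its own division in both libraries.

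**Figure D4:**
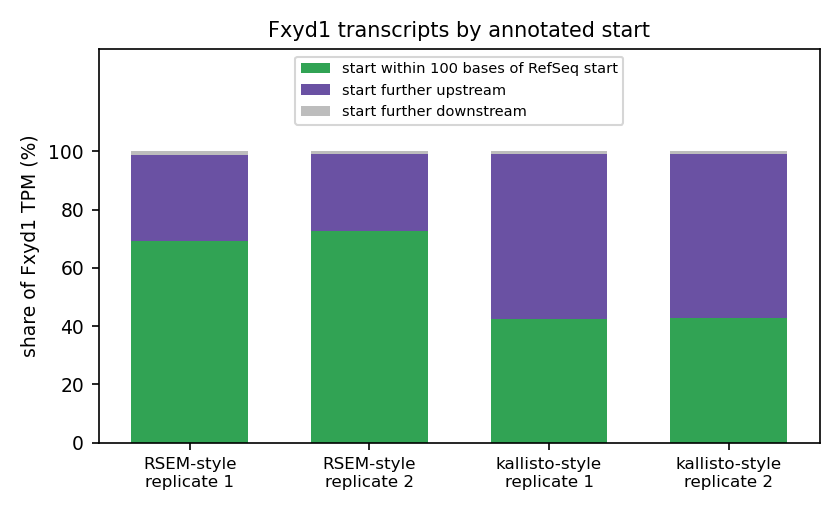
Share of Fxyd1 TPM, in percent, by where the annotated transcript starts, as stacked bars for each table and library. The shares hardly differ between replicate 1 and replicate 2 within a table, but the start near the RefSeq start takes 69.3% and 72.6% by the RSEM-style table and 42.4% and 42.8% by the kallisto-style table.

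The gene totals also depended on the table, without a change of order. The log2 ratio of RSEM-style over kallisto-style TPM was -0.66 ± 0.00 for Atp1b1, -0.74 ± 0.01 for Atp1b2 and -0.70 ± 0.04 for Fxyd1 (SD, n = 2), against a median of -0.27 over 12114 genes at 1 TPM or more. Ratios as low or lower were found in 10.3%, 7.57% and 8.83% of those genes. Atp1b3 at -0.22, Fxyd6 at -0.33 and Fxyd5 at -0.48 lay nearer to the median. In kallisto-style TPM, Fxyd1 had 524 in replicate 1 and 466 in replicate 2, and Atp1b1 had 325 and 303.

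The libraries were then compared gene by gene, as replicate 1 over replicate 2, with an exact binomial test on counts scaled by TMM and Benjamini-Hochberg adjustment over 16611 genes. With 1 library on each side the test covers counting error and compares these libraries, not conditions. None of the 6 members differed by at least 2-fold at an adjusted p of 0.05, where 3.24% of all genes did. At any ratio 3 of 6 members passed, all higher in replicate 1, against a background of 22.1% in either direction, 11.6% higher and 10.4% lower in replicate 1. The edgeR exact test with an assumed biological coefficient of variation of 0.1 or 0.2 passed none of the 6 at any ratio (adjusted p = 1 for each), where 2.85% and 1.38% of all genes passed.

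The 3 that passed were Atp1b1, Fxyd1 and Atp1b2. Atp1b1 had 14271 counts in replicate 1 and 16150 in replicate 2, a scaled log2 ratio of 0.11 (95% interval 0.07 to 0.14, exact binomial test, adjusted p = 3.03e-09). Fxyd1 had 4067 and 4449 counts and a log2 ratio of 0.16 (0.09 to 0.22, adjusted p = 1.01e-05 by the exact test). Atp1b2 had 1017 and 1080 counts and a log2 ratio of 0.20 (0.07 to 0.32, adjusted p = 0.0107 by the exact test), and lost the call with scaling by total counts (adjusted p = 0.0673), under which 23.1% of genes passed. These are differences of under 0.21 on the log2 scale, and their intervals cover counting error only.

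The other 3 did not pass. Atp1b3 had 1484 and 1960 counts and a log2 ratio of -0.12 (adjusted p = 0.0762 by the exact test), and passed with scaling by total counts (-0.16, adjusted p = 0.00688). Fxyd6 had 441 and 465 counts (0.21, adjusted p = 0.108 by the exact test), and Fxyd5 had 214 and 274 (-0.07, 95% interval -0.34 to 0.19, adjusted p = 0.795 by the exact test). The median log2 ratio of the 6 members was 0.13, beside 0.00038 over all genes tested. The atrial markers were higher in replicate 1 and the T cell and thymus markers lower, as given above, and their part in these ratios was not tested.

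**Figure D5:**
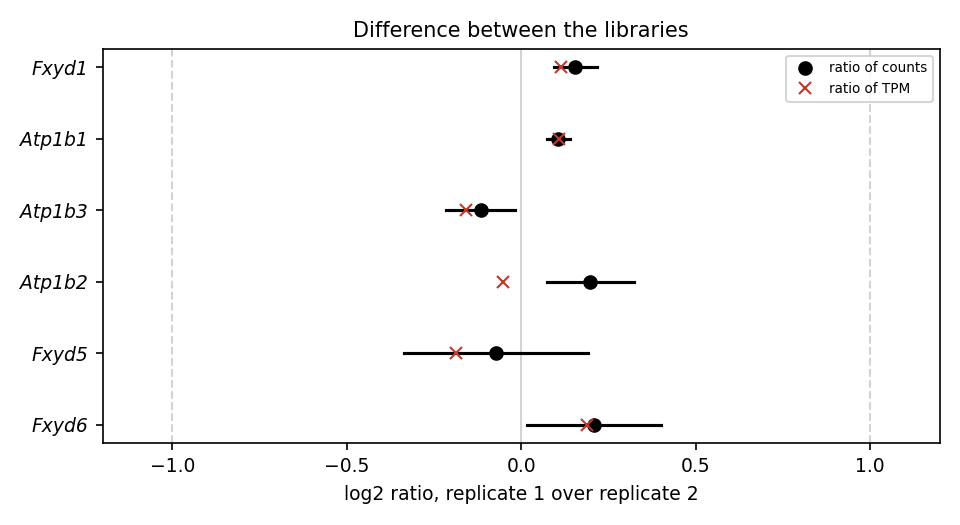
Log2 ratio of replicate 1 over replicate 2 for the 6 members, as scaled counts with 95% intervals for counting error (circles and lines) and as TPM (red crosses); dashed lines mark 2-fold. No gene reaches 2-fold, and for Atp1b2 the TPM ratio lies on the other side of 0 from the count ratio.

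Genes that act on the members were also measured. Of 9 kinases and phosphatases of phospholemman and related subunits, 9 reached 1 TPM in both libraries, with a median of 30.1 TPM. They were led by the phosphatase subunits Ppp1cb at 194 ± 1.49 TPM and Ppp1ca at 165 ± 1.07 TPM, and by Prkaca, the catalytic subunit of protein kinase A, at 163 ± 1.77 TPM (SD, n = 2). Protein kinase C alpha, Prkca, was at 15.4 TPM in replicate 1 and 20.2 TPM in replicate 2. At any ratio 2 of the 9 were higher in replicate 1 and 1 was lower, against 11.6% and 10.4% of all genes, and none was called at 2-fold, against 3.24% of all genes.

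Among 13 partners and anchors of the pump, 11 reached 1 TPM, led by the spectrin Sptbn1 at 214 ± 7.72 TPM, the caveolin Cav1 at 173 ± 3.19 TPM and the ankyrin Ank2 at 133 ± 4.89 TPM (SD, n = 2). Of 11 tested, 6 were higher in replicate 1 at any ratio, where 11.6% of all genes were, and none differed at 2-fold, where 3.24% of all genes did. Of the 4 Nkain genes, whose products are known to bind beta subunits, Nkain4 had 4.83 TPM in replicate 1 and 6.27 TPM in replicate 2 and Nkain1 had 1.74 and 2.36 TPM, while Nkain2 and Nkain3 lay below 1 TPM in both libraries.

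All 7 listed genes of sodium entry and exchange were detected, led by the sodium-calcium exchanger Slc8a1 at 173 ± 5.84 TPM, the phosphate carrier Slc20a2 at 60.6 ± 6.91 TPM and the cotransporter Slc12a2 at 9.24 ± 0.27 TPM (SD, n = 2). At any ratio 2 of the 7 were higher in replicate 1 and 2 lower, against 11.6% and 10.4% of all genes, and none was called at 2-fold, against 3.24%. Of 7 hormone regulators, 6 were detected, led by the thyroid receptor Thra at 54.1 ± 1.44 TPM and the kinase Sgk1 at 51.9 ± 4.89 TPM. Of these 7, 3 were higher in replicate 1 at any ratio and 2 lower, against 11.6% and 10.4% of all genes, and none was called at 2-fold, against 3.24%. Hsd11b2, which protects the mineralocorticoid receptor from glucocorticoids in kidney, was at 0.43 and 0.42 TPM. The median level over all genes tested was 5.43 TPM, and the median of the 6 members was 20.2 TPM. The 6 were chosen with earlier results known and their lower paralogs are not among them, so these medians are no test of the members.

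Genes that overlap a member had few counts beside it, and those adjoining the FXYD members were low. Fxyd5, Fxyd7 and Fxyd1 lie in a row on the minus strand of chromosome 7, 31 bases apart between Fxyd5 and Fxyd7 and 210 bases between Fxyd7 and Fxyd1, yet their levels were 10.5, 0.50 and 316 TPM in replicate 1 and 11.99, 0.46 and 292 TPM in replicate 2. Fxyd2 begins 3509 bases beyond Fxyd6 and was at 0.46 and 0.96 TPM beside 8.50 and 7.45 TPM for Fxyd6. Genes of the FXYD family that adjoin each other thus stood at very different levels. The 3′ end of Atp1b1 overlaps Nme7 on the other strand by 617 bases, and Nme7 had 112 and 115 counts beside 14271 and 16150 for Atp1b1. No gene overlaps Atp1b2 or Atp1b3, and Mir7050, inside Fxyd5, had 0 counts.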

How the data were processed

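Gene and transcript abundance was measured by total RNA sequencing in 2 heart libraries of 1 group. For each library the authors deposited RSEM-style tables of genes and of transcripts and a kallisto-style table of transcripts, so called from their column names. Per the file headers these hold expected counts or estimated counts and TPM, the percent of a gene's TPM in each transcript, and, in the RSEM-style tables, lower and upper bounds of each TPM whose level is not stated. The authors' readme names mm10 and annotation M21; the aligner is not named and no version is given in the sources used here. Reads of a hybrid strain were assigned to the reference strain's sequence, and the effect of this on single transcripts was not tested.

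Symbols came from the kallisto-style target names and were joined by gene identifier; GENCODE M21 (GRCm38) gave types and coordinates, and RefSeq (GRCm38.p6) gave promoter windows. The planned protein comparison was not run, and some related genes of the planned lists are not reported here. TPM was taken as deposited, kallisto-style values were summed per gene, and ratios used TPM + 0.1. SDs are over 2 libraries. Counts were rounded and compared by a 2-sided exact binomial test (scipy 1.17.1, Python 3.11.15) with TMM-scaled library sizes from edgeR 4.0.16, over genes with either 10 counts or more in both libraries or a sum of 20, called at p of 0.05 after Benjamini-Hochberg adjustment, alone and together with a log2 ratio of at least 1; 95% intervals are Clopper-Pearson and cover counting error only. The edgeR exact test and DESeq2 1.42.0 size factors were alternatives. The library test was tested on simulated data with 200 changed genes. The simulation held counting error only and scored calls with a log2 ratio of at least 1, so it does not bear on calls at smaller ratios. The 6 genes, the lists and the tests were chosen with earlier results of these data known; genes named beyond the members came from the lists (the highest in each and those near 0), from marker lists and from chromosomal neighbours.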

Additional observations from a re-analysis of the deposited data

How the results depend on the processing

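No paired analysis was possible because both libraries belong to the same group. The log2 ratio of Fxyd5 over Fxyd6, 0.49 as reported, became -0.75 with protein-coding transcripts only and -0.90 with counts not divided by length. With kallisto-style TPM, Atp1b1 over Atp1b3 was 3.29, Atp1b3 over Atp1b2 was 0.58, Fxyd1 over Fxyd5 was 4.97 and Fxyd1 over Fxyd6 was 5.61. With protein-coding transcripts only, Atp1b1 over Atp1b2 was 4.32, Atp1b3 over Atp1b2 was 1.45 and Fxyd1 over Fxyd5 was 5.97. Without division by length, Atp1b1 over Atp1b3 was 3.15, Atp1b3 over Atp1b2 was 0.70, Fxyd1 over Fxyd5 was 4.13 and Fxyd1 over Fxyd6 was 3.23. A pseudocount of 1 gave 5.09 for Fxyd1 over Fxyd6. The causes were not tested, except that gene length enters by construction in the counts. Leaving out either replicate gives the other replicate's value: 3.86 to 4.02 for Atp1b1 over Atp1b2, 2.72 to 2.98 for Atp1b1 over Atp1b3, 1.04 to 1.15 for Atp1b3 over Atp1b2, 4.59 to 4.89 for Fxyd1 over Fxyd5, 5.20 to 5.27 for Fxyd1 over Fxyd6 and 0.31 to 0.68 for Fxyd5 over Fxyd6. Rescaling TPM over nuclear protein-coding genes raised the level of every member by 1 common factor per library, to 720 TPM for Fxyd1, 470 for Atp1b1 and 18.9 for Fxyd6, and left the ratios within a library as they were apart from the pseudocount. The number of members called at any ratio was 3 with every binomial setting and 0 with the edgeR exact test at either assumed variation. The 3 were not always the same genes. With scaling by total counts Atp1b3, lower in replicate 1, took the place of Atp1b2. No member was called at 2-fold in any of these settings. The difference in the Fxyd6-201 share was 45.3 points, or 47.1 points by the kallisto-style table. With 2 libraries of 1 group, nothing here measures variation between animals or conditions, and the division of a gene among transcripts is limited by the reads that tell them apart.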
